A study of Homo sapiens with 22 samples.

Results

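Genes of sterol and fatty acid synthesis and of sterol movement were examined in HEK293 clones making coagulation factor VIII. Regulators of the SREBP transcription factors were included, and many of the genes are known SREBP targets. Members were the rows whose gene symbol was one of 37 listed symbols, and 35 of these had a row among the 15797 genes of the deposited table. The levels of CYP51A1 and ABCA1 were not analysed here, though both genes are among the promoters counted below. All 35 passed the filter on low values, at least 1 CPM (reads scaled to a fixed library size) in at least 4 of 10 clones, which left 15611 genes for testing.

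The study set HEK293 cells, a long-established human line from embryonic kidney, carrying factor VIII without its B domain (BDD) against cells carrying the full-length protein (FL), and asked how the deletion affects secretion. There were 6 BDD clones (1, 2, 7, 12, 13 and 27) and 4 FL clones (4, 7, 9 and 10), each sequenced as a library a and a library b, grown to partial confluence with no treatment. A line titled HEK 28 with 2 libraries carried the full-length genotype label; it was kept apart, and the name HEK28 is also the cell line label of every clone. Values were averaged over the libraries of a clone, and clones were compared. BDD clone 2 was titled "oldbdd", with no explanation. The labels give neither the promoter driving factor VIII nor whether clones came from separate transfections or libraries from separate cultures, so p-values measure the spread between these clones, which may in part be technical. Each group is a set of single clones, and a difference between clonal lines cannot be told apart from one between the transgenes where it runs with the group.

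SREBP proteins are made as membrane precursors in the endoplasmic reticulum, where they are bound by SCAP. When membrane sterol is plentiful, INSIG proteins hold SCAP there; when it is scarce, SCAP carries SREBP to the Golgi apparatus, where proteases release the part that enters the nucleus. SREBP-2 mainly drives the genes of cholesterol synthesis, and SREBP-1c mainly those of fatty acid synthesis. NF-Y, which binds CCAAT letters, is a known partner of SREBP at many of these promoters.

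Promoters of 6 genes are shown because they span the patterns described below: INSIG1, MSMO1, NSDHL and SCD were lower in BDD clones, while INSIG2 and SREBF2 were not called. Each is the 250 bases before the first start listed for the gene in RefSeq (GRCh38.p14), written 5′ to 3′ on the gene's strand, which is the plus strand for all 6. The windows are chr7:155297628-155297877 for INSIG1, chr2:118088221-118088470 for INSIG2, chr22:41832855-41833104 for SREBF2, chr4:165327419-165327668 for MSMO1, chrX:152830813-152831062 for NSDHL and chr10:100346983-100347232 for SCD. Capitals mark the CCAAT box (CCAAT, or ATTGG for the other strand), the sterol regulatory element letters TCACNCCAC and the E-box CACGTG.
INSIG1: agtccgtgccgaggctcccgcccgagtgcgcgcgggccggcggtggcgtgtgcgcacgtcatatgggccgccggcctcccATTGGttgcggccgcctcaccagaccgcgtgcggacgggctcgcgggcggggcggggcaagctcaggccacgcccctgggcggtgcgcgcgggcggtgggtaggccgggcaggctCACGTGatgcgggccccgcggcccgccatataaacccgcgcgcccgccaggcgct
INSIG2: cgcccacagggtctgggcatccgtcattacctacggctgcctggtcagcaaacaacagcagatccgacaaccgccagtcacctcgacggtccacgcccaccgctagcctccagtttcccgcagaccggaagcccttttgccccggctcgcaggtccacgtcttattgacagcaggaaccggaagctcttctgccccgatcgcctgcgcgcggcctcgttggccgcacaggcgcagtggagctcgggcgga
SREBF2: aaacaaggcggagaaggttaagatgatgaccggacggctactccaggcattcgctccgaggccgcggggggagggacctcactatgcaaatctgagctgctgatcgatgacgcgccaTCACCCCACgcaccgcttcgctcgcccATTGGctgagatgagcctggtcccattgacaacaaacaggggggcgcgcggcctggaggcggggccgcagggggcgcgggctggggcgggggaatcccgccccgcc
MSMO1: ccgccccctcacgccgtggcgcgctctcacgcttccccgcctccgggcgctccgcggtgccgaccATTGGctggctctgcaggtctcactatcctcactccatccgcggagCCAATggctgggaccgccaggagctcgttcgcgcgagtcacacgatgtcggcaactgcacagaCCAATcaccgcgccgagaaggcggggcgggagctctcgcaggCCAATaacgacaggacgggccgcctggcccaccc
NSDHL: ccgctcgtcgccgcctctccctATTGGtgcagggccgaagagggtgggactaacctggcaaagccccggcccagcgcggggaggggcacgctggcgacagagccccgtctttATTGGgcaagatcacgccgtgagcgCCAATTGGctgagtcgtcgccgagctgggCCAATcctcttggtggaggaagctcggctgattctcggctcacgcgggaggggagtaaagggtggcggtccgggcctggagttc
SCD: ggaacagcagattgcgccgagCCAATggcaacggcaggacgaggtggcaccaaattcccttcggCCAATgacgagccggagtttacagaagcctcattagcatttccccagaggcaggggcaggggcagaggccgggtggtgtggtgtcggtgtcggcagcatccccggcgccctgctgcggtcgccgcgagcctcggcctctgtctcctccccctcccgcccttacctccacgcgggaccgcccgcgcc

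Of the 37 symbols, 33 had a promoter in the RefSeq table. These include CYP51A1 and ABCA1, which are neither among the called members nor among those not called. Of the 33, 11 had more than 1 start, of which the first listed was used. In each of the 6 windows shown the GENCODE 29 gene model begins before the RefSeq start, so positions depend on the start chosen. MSMO1 has 4 CCAAT boxes, at 185, 139, 76 and 34 bases before the start counted to the box's first base. NSDHL has 5, of which a pair overlaps in the run CCAATTGG and was counted on both strands. SCD has 2 and INSIG1 has 1, at 170 bases before its start, with an E-box at 55. INSIG2 has none of the 3 motifs marked. The SREBF2 window holds TCACCCCAC at 133 bases and a CCAAT box at 106.

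CCAAT on either strand was found in 20 of 33 member promoters (60.6%), against 35% of the promoters of 10322 protein-coding genes tested. Among sterol arm genes with a row it was in 12 of 14 (85.7%). Of these 14, 8 had 2 or more (57.1%), against 12.6% of the protein-coding genes. CYP51A1, a sterol gene left out of the 14 because it has no row, had no CCAAT in its promoter. The fatty acid arm had it in 4 of 9 (44.4%). Among members lower in BDD clones, 13 of 15 promoters held CCAAT (86.7%), and 7 of 16 among members that were not called (43.8%). Sterol arm genes are more frequent among the lower members, so this split in part repeats the split by arm. Within the sterol arm, LSS, TM7SF2 and HSD17B7 were not called and held CCAAT, while PMVK had none. Of the lower sterol genes with a promoter, only IDI1 lacked it. The share with CCAAT was 39.1% over the 2012 protein-coding genes lower in BDD clones. TCACNCCAC was in 1 of 33 member promoters, that of SREBF2, and in 0.833% of protein-coding genes; these letters are 1 form of a variable element. The GC box GGGCGG, known as the binding letters of SP1, was in 30 of 33 (90.9%), against 67.5%, and CACGTG was in 5 of 33 (15.2%), against 8.76%. These counts describe letters in 1 window per gene and were not tested.

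Across the whole table, 32.5% of genes differed between BDD and FL clones (limma, adjusted p below 0.05), 16.5% lower and 16.1% higher in BDD clones, with a median log2 fold change of 0.01. Among genes with a mean of at least 3 log2 CPM, 22.7% were lower. Recovered depth was 4951081 to 6197084 reads per library. F8 itself ran from 2.10 to 7.74 log2 CPM in BDD clones and from 7.11 to 7.87 in FL clones. HEK 28 had the highest F8 level, 8.90 log2 CPM. All 10 listed HEK293 marker genes had a row. Their summed level was 1330 to 2530 CPM in BDD clones, 5280 to 5720 in FL clones and 5400 in HEK 28. The list moved both ways: 5 were lower in BDD clones and 2 were higher, and the neurofilament gene NEFM, at 10.25 ± 0.44 and 12.04 ± 0.04 log2 CPM, carries most of the sum in FL clones, while the keratin gene KRT8 was higher (4.20 ± 0.52 and 2.38 ± 0.51). The part of these differences in the results below was not tested. No hepatocyte, adipocyte or endothelial marker on the lists had a row. Fibroblast markers (2 of 5 with a row) summed to 20.0 to 44.8 CPM in BDD and 12.2 to 31.0 in FL clones, and leukocyte markers (2 of 5) to 5.93 to 11.3 and 2.61 to 6.26.

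In BDD clones, 18 of the 35 genes were lower and 0 were higher than in FL clones, while 17 were not called; the background of lower calls is 16.5%, and higher calls 16.1%. At an unadjusted p below 0.05, 20 members differed, against 43.1% of all genes, and limma-voom on recovered reads made the same 18 calls. The median log2 fold change of the members was -0.45. Every BDD clone lay below every FL clone for 14 of the 35, against 12% of all genes tested. By arm, 6 of 7 mevalonate genes, 7 of 10 genes from squalene to cholesterol, 1 of 5 control genes, 0 of 3 sterol movement genes and 4 of 10 fatty acid genes were lower. As these are bulk samples, less RNA per cell cannot be told apart from fewer cells that make it.

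**Figure D1:**
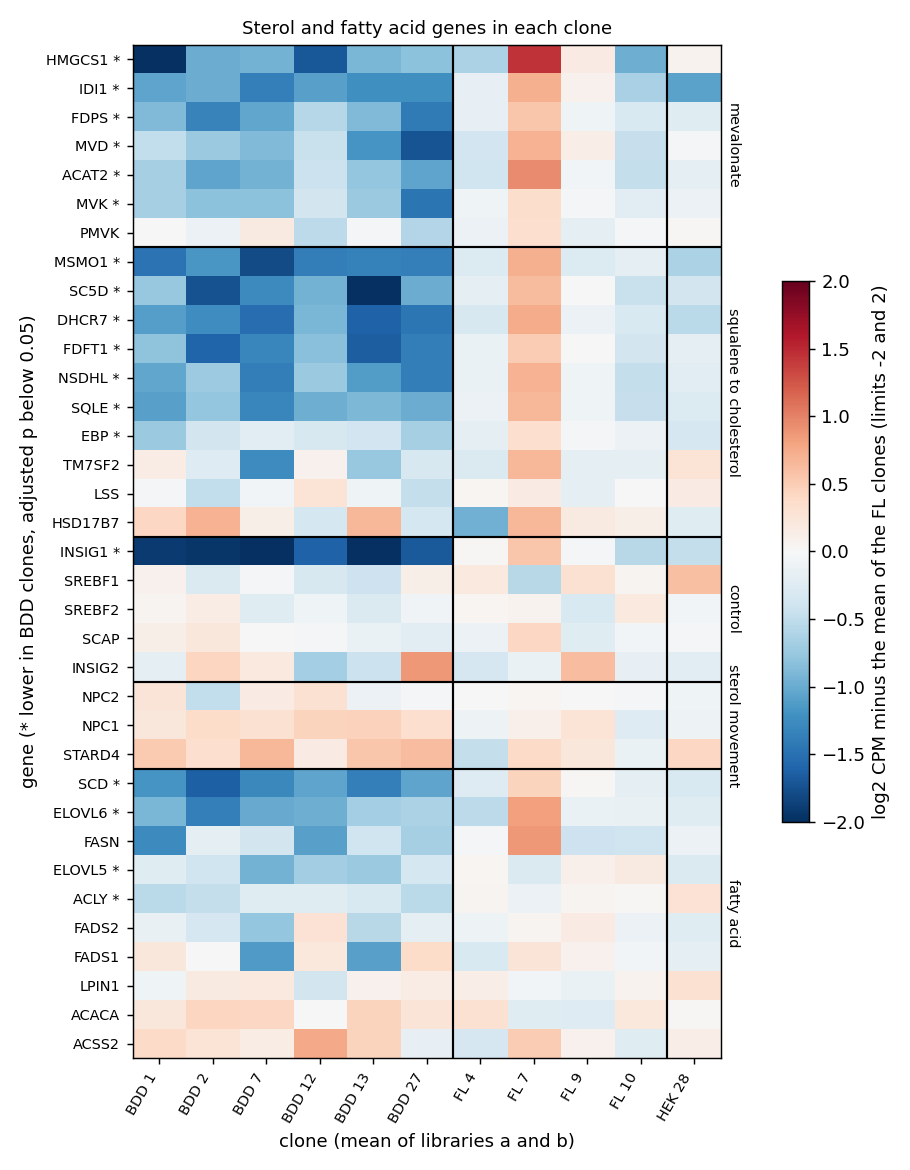
Level of each member in each clone, as log2 CPM minus the mean of the 4 FL clones, by arm; colour runs from -2 (blue) to 2 (red) and values beyond are drawn at the limit, and an asterisk marks genes lower in BDD clones at a limma adjusted p below 0.05. The BDD columns are blue through most sterol genes, and FL clone 7 is the reddest of the FL columns there, led by HMGCS1 at 8.68 log2 CPM.

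The mevalonate arm makes isoprenoid units from acetyl-CoA. HMGCS1 (ENSG00000112972, chromosome 5, 43289395 to 43313512 on GRCh38) encodes the cytosolic synthase that makes HMG-CoA. Its level in BDD clones ran from 5.18 to 6.41 log2 CPM, with a median of 6.26. FL clones 4, 7, 9 and 10 had 6.60, 8.68, 7.39 and 6.26, and HEK 28 had 7.30. The groups overlapped, since FL clone 10 lay below BDD clones 7, 13 and 27, and FL clone 7 stood highest. The means were 5.99 ± 0.51 (SD, n = 6) and 7.23 ± 1.08 (SD, n = 4), and the log2 fold change was -1.24 (SE 0.37; limma adjusted p = 0.0193). Without FL clone 7 the change was -0.76 (adjusted p = 0.0576), and without FL clone 9 it was -1.19 (adjusted p = 0.0551), so the call rested on each of these clones. After removal of each clone's trends with level, base composition and exon length it was -0.97 (adjusted p = 0.0564).

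IDI1 (ENSG00000067064, chromosome 10, 1039152 to 1049170) encodes the isomerase that converts isopentenyl diphosphate to its allylic isomer. BDD clones had 3.51 to 3.88 log2 CPM, with a median of 3.72. The FL clones had 4.72, 5.59, 4.97 and 4.23, and HEK 28 had 3.81. All FL clones lay above all BDD clones, whereas HEK 28 lay among the BDD clones. IDI1 fell by 1.16 on the log2 scale in BDD clones (SE 0.21; limma adjusted p = 0.000996), 2.23-fold. FDPS (ENSG00000160752, chromosome 1, 155308748 to 155320666) encodes the synthase of farnesyl diphosphate, the branch point between sterols and other isoprenoids. Its BDD levels ran from 5.82 to 6.67 log2 CPM (median 6.27), and its FL levels were 7.07, 7.79, 7.15 and 6.94, with 7.00 in HEK 28. The groups did not overlap, and the log2 fold change was -1.02 (SE 0.18; limma adjusted p = 0.000882).

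MVK, the mevalonate kinase, had 3.49 ± 0.36 log2 CPM in BDD and 4.30 ± 0.24 in FL clones, a log2 fold change of -0.81 (adjusted p = 0.00702) with no overlap. MVD, the decarboxylase that yields isopentenyl diphosphate, had 2.97 ± 0.48 and 3.88 ± 0.53, a change of -0.91 (adjusted p = 0.0212). The MVD call was lost without FL clone 7 (-0.68, adjusted p = 0.0800), without FL clone 9 (-0.86, adjusted p = 0.0631) and without BDD clones 7 and 13 together (-0.85, adjusted p = 0.0694). ACAT2, the cytosolic thiolase that starts the pathway, had 6.65 ± 0.24 and 7.47 ± 0.66, a change of -0.82 (adjusted p = 0.0125). It was -0.50 without FL clone 7 (adjusted p = 0.0239) and -0.58 with clone trends removed (adjusted p = 0.0585). PMVK, the phosphomevalonate kinase between MVK and MVD, had 4.67 ± 0.31 and 4.85 ± 0.23 and was not called (adjusted p = 0.440). The strand setting of the counting is not given in the sources used here. In the basic GENCODE 29 annotation ACAT2 shares 34.8% of its exonic bases with SOD2, 45.8% with SOD2-OT1 and 12.5% with TCP1. All of these lie on the opposite strand, so reads of ACAT2 could in part belong to them. FDPS shares 28.9% with RUSC1-AS1 and HMGCS1 19.9% with AC114947.2, likewise on the opposite strand.

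From squalene on, the arm builds the sterol rings and edits them to cholesterol. FDFT1 (ENSG00000079459) encodes squalene synthase, the first step committed to sterols. BDD clones had 5.59 to 6.44 log2 CPM, with a median of 5.89. FL clones had 7.11, 7.75, 7.24 and 6.88, and HEK 28 had 7.04. Every FL clone and HEK 28 lay above every BDD clone, and the log2 fold change was -1.27 (SE 0.19; limma adjusted p = 0.00031). SQLE (ENSG00000104549), the epoxidase that is a known control point of the pathway, ran from 4.91 to 5.44 log2 CPM in BDD clones (median 5.24). Its FL levels were 6.10, 6.88, 6.13 and 5.76, and HEK 28 had 5.94. Again the groups were apart, with a log2 fold change of -1.0 (SE 0.18; limma adjusted p = 0.00093).

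LSS (ENSG00000160285, chromosome 21, 46188141 to 46228824) encodes lanosterol synthase, which closes the rings of the epoxide made by SQLE. Its BDD levels were 4.19 to 4.95 log2 CPM (median 4.61), its FL levels 4.72, 4.84, 4.48 and 4.68, and HEK 28 had 4.84. The groups overlapped throughout, and the log2 fold change of -0.14 (SE 0.16) was not called (limma adjusted p = 0.531). LSS thus did not pass the test although called genes act before and after it in the pathway; whether its change differs from theirs was not tested.

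MSMO1 (ENSG00000052802, chromosome 4, 165327623 to 165343160), the oxidase that begins removal of the C4 methyl groups, had the second largest fall of the 35 genes. BDD clones had 3.79 to 4.42 log2 CPM, with a median of 4.21. FL clones had 5.31, 6.29, 5.31 and 5.40, and HEK 28 had 4.95. A gap of nearly a log2 unit separated the highest BDD clone from the lowest FL clone, and HEK 28 fell inside it. The log2 fold change was -1.42 (SE 0.19; limma adjusted p = 0.000126), or 2.67-fold. DHCR7 (ENSG00000172893, chromosome 11, 71428193 to 71452868) encodes the reductase that turns 7-dehydrocholesterol into cholesterol. Its BDD levels ran from 4.01 to 4.71 log2 CPM (median 4.28), and its FL levels were 5.31, 6.37, 5.52 and 5.33, with 5.09 in HEK 28. As for MSMO1, HEK 28 lay between the groups, which did not overlap; the log2 fold change was -1.31 (SE 0.21; limma adjusted p = 0.000374).

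NSDHL, the dehydrogenase that acts after MSMO1, had 4.34 ± 0.29 log2 CPM in BDD and 5.40 ± 0.50 in FL clones, a log2 fold change of -1.06 (adjusted p = 0.00176). SC5D, the desaturase just before DHCR7, had 3.56 ± 0.64 and 4.93 ± 0.47, a change of -1.37 (adjusted p = 0.00346). It was also the most scattered of the called genes among BDD clones, from 2.46 in clone 13 to 4.17 in clone 1. In BDD clone 2 the SC5D values of libraries a and b were 4.14 and 2.24, a difference of 1.9 log2 units. EBP, the sterol isomerase, had 6.06 ± 0.21 and 6.51 ± 0.23, a change of -0.45 (adjusted p = 0.0203). The EBP call was lost without FL clone 7 (-0.34, adjusted p = 0.0706) and with clone trends removed (-0.22, adjusted p = 0.219). TM7SF2, a sterol reductase acting on the C14 double bond, had 3.48 ± 0.53 and 3.87 ± 0.45 and was not called (adjusted p = 0.288). HSD17B7, a ketoreductase of the C4 step, had 0.87 ± 0.47 and 0.67 ± 0.69 (adjusted p = 0.707). HSD17B7 is known to have pseudogene copies, and its level was near 1 CPM. Its libraries a and b differed by 2.44 log2 units in BDD clone 7, 2.42 in FL clone 10 and 2.30 in FL clone 4. The value of HSD17B7 is therefore uncertain.

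**Figure D2:**
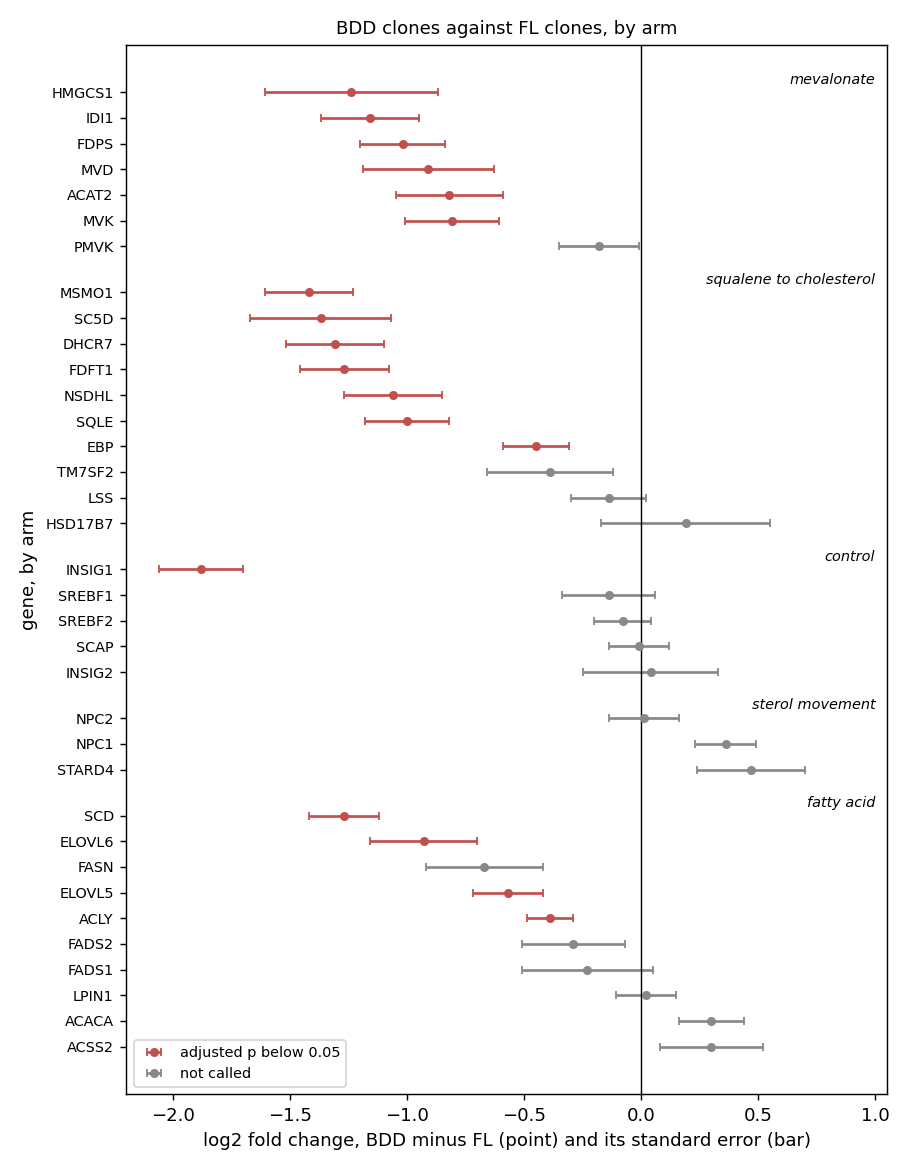
Log2 fold change of each member, BDD minus FL clones, with its standard error as a bar, by arm; red points passed a limma adjusted p below 0.05. INSIG1 lies farthest left at -1.88, most sterol genes lie near -1, and no red point lies to the right of 0.

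Of the control genes, INSIG1 was lower in BDD clones and the other 4 did not pass the test. INSIG1 (ENSG00000186480, chromosome 7, 155297776 to 155310235) encodes the retention protein whose own gene is a classic SREBP target. The 6 BDD clones lay between 3.84 and 4.31 log2 CPM, with a median of 4.00. FL clones 4, 7, 9 and 10 had 5.96, 6.49, 5.89 and 5.38, and HEK 28 had 5.46. All FL clones and HEK 28 were more than a log2 unit above the highest BDD clone. The means were 4.05 ± 0.19 (SD, n = 6) and 5.93 ± 0.46 (SD, n = 4), and the log2 fold change was -1.88 (SE 0.18; limma adjusted p = 1.5e-05), or 3.68-fold. Over 23 refits with other settings, which include each clone left out, it ranged from -2.06 to -1.65 and was called in all of them.

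INSIG2 (ENSG00000125629, chromosome 2, 118088452 to 118110997) encodes the related retention protein, whose gene is not known as an SREBP target. Its BDD levels ran from 2.09 to 3.63 log2 CPM (median 2.77), its FL levels were 2.44, 2.64, 3.38 and 2.60, and HEK 28 had 2.54. The BDD clones enclosed all FL clones, and the log2 fold change was 0.04 (SE 0.29; limma adjusted p = 0.939). The pair of INSIG genes therefore stood apart in these values, with INSIG1 separated between the groups and INSIG2 not. The difference between their changes was not tested. Libraries a and b of INSIG2 differed by 1.88 log2 units in BDD clone 12 and by 1.19 in BDD clone 1, so its range is uncertain.

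SREBF2 (ENSG00000198911, chromosome 22, 41833079 to 41907308) encodes SREBP-2. BDD clones had 6.29 to 6.73 log2 CPM (median 6.50), FL clones had 6.62, 6.65, 6.27 and 6.77, and HEK 28 had 6.52. The groups overlapped, with a log2 fold change of -0.08 (SE 0.12; limma adjusted p = 0.657). SREBF1 (ENSG00000072310, chromosome 17, 17810399 to 17837002) encodes the SREBP-1 proteins; its isoforms are not separated by gene level values. Its BDD levels ran from 3.25 to 3.78 log2 CPM (median 3.50), and its FL levels were 3.86, 3.10, 3.96 and 3.71. HEK 28 had the highest level, 4.26, and FL clone 7 the lowest of all 11 clones. The log2 fold change of SREBF1 was -0.14 (SE 0.20; limma adjusted p = 0.616). SCAP (ENSG00000114650, chromosome 3, 47413694 to 47477126), the escort protein, ran from 6.76 to 7.20 log2 CPM in BDD clones (median 6.97) and was 6.87, 7.40, 6.73 and 6.93 in FL clones, with 6.94 in HEK 28. Its log2 fold change was -0.01 (SE 0.13; limma adjusted p = 0.973). These are mRNA levels; cleavage of SREBP was not measured.

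**Figure D3:**
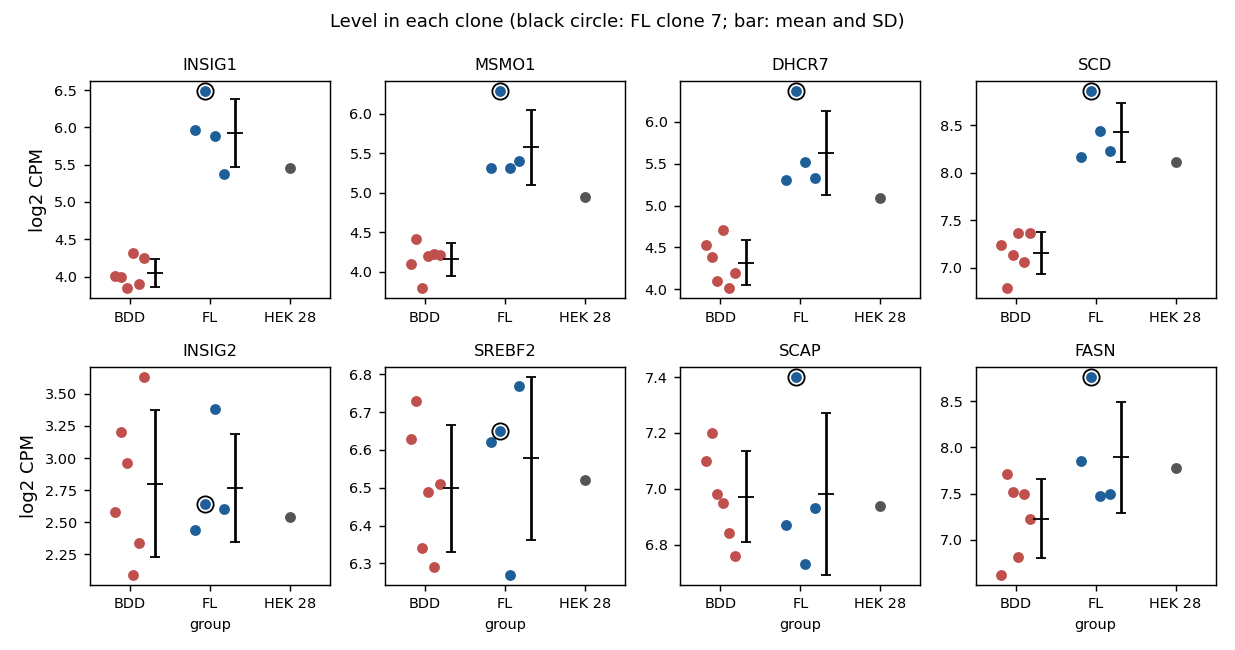
Level in log2 CPM of 8 genes in each BDD clone (red), FL clone (blue, FL clone 7 circled) and HEK 28 (grey), with the mean and SD of the BDD and FL clones beside the points; each panel has its own axis, which does not start at 0. INSIG1, MSMO1, DHCR7 and SCD are separated between the groups, while INSIG2, SREBF2, SCAP and FASN overlap.

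Sterol movement genes did not pass the test in either direction. STARD4 (ENSG00000164211, chromosome 5, 111496033 to 111512590), a cytosolic sterol carrier, ran from 1.86 to 2.36 log2 CPM in BDD clones (median 2.24). FL clones had 1.23, 2.09, 1.92 and 1.57, and HEK 28 had 2.11. The groups overlapped through FL clones 7 and 9, with a log2 fold change of 0.47 (SE 0.23; limma adjusted p = 0.133). NPC1 (ENSG00000141458, chromosome 18, 23506184 to 23586898), which moves cholesterol out of lysosomes, ran from 4.74 to 4.98 log2 CPM in BDD clones (median 4.87). FL clones had 4.42, 4.62, 4.79 and 4.26, and HEK 28 had 4.42. Only FL clone 9 reached the BDD range. The log2 fold change was 0.36 (SE 0.13; limma adjusted p = 0.0526), and it passed the threshold in 7 of 23 refits, 3 of them with libraries rather than clones as samples, and among the others both other scalings (0.38, adjusted p = 0.0417, and 0.40, adjusted p = 0.0364). NPC2, the lysosomal partner of NPC1, had 5.53 ± 0.30 and 5.52 ± 0.03 (adjusted p = 0.962).

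In the fatty acid arm, SCD had the largest fall. SCD (ENSG00000099194, chromosome 10, 100347124 to 100364834) encodes the desaturase that makes oleate and palmitoleate. BDD clones had 6.78 to 7.36 log2 CPM, with a median of 7.18. The lowest of these, BDD clone 2, averages a library a at 7.49 and a library b at 6.06. FL clones had 8.16, 8.86, 8.44 and 8.23, and HEK 28 had 8.11. Every FL clone and HEK 28 was above every BDD clone, and the log2 fold change was -1.27 (SE 0.15; limma adjusted p = 4.4e-05), or 2.41-fold. ELOVL6 (ENSG00000170522, chromosome 4, 110045846 to 110199199), which elongates palmitate to stearate, had 3.54 to 4.26 log2 CPM in BDD clones (median 3.95). FL clones had 4.37, 5.72, 4.77 and 4.75, and HEK 28 had 4.66. Here the groups were separate by a narrow margin at FL clone 4, and the log2 fold change was -0.93 (SE 0.23; limma adjusted p = 0.00626).

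ACLY (ENSG00000131473, chromosome 17, 41866908 to 41930542) encodes the ATP citrate lyase that supplies cytosolic acetyl-CoA. Its BDD levels ran from 7.18 to 7.48 log2 CPM (median 7.33), its FL levels were 7.77, 7.60, 7.77 and 7.75, and HEK 28 was highest at 8.01. The groups did not overlap, although the log2 fold change was only -0.39 (SE 0.10; limma adjusted p = 0.00924), and with clone trends removed it was -0.23 (adjusted p = 0.0861). ELOVL5, which elongates polyunsaturated fatty acids, had 5.90 ± 0.27 and 6.46 ± 0.21, a change of -0.57 on the log2 scale (adjusted p = 0.00939). With trends removed it was -0.27 (adjusted p = 0.171).

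FASN (ENSG00000169710, chromosome 17, 82078333 to 82098332) encodes fatty acid synthase. BDD clones had 6.62 to 7.71 log2 CPM, with a median of 7.35. FL clones had 7.85, 8.76, 7.47 and 7.49, and HEK 28 had 7.78. FL clones 9 and 10 lay among the BDD clones. The log2 fold change of -0.67 (SE 0.25) missed the threshold (limma adjusted p = 0.0533). It was called in 8 of 23 refits, 3 of them with libraries rather than clones as samples, and was -0.38 without FL clone 7 (adjusted p = 0.197). ACACA (ENSG00000278540, chromosome 17, 37084988 to 37406818), the acetyl-CoA carboxylase before it, had 6.20 to 6.65 log2 CPM in BDD clones (median 6.55) and 6.51, 5.96, 5.95 and 6.42 in FL clones, with 6.23 in HEK 28. Its log2 fold change was 0.30 (SE 0.14; limma adjusted p = 0.119), so the values of ACACA and FASN, consecutive steps, lay on opposite sides of 0.

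The desaturases FADS1 and FADS2 act on polyunsaturated fatty acids and lie side by side on chromosome 11. FADS1 (ENSG00000149485, 61799625 to 61829318) had 6.34 to 7.84 log2 CPM in BDD clones (median 7.58), and 7.17, 7.73, 7.55 and 7.42 in FL clones, with 7.28 in HEK 28. BDD clones 7 and 13, at 6.34 and 6.39, were the only clones below 7, and these are also the BDD clones with the least F8 (3.75 and 2.10 log2 CPM). The log2 fold change of FADS1 was -0.23 (SE 0.28; limma adjusted p = 0.555), and without these 2 clones it was 0.21 (adjusted p = 0.297). FADS2 (ENSG00000134824, 61792980 to 61867354) had 2.27 to 3.33 log2 CPM in BDD clones (median 2.78), and 2.94, 3.10, 3.20 and 2.92 in FL clones, with 2.79 in HEK 28. It was not called (-0.29, SE 0.22; limma adjusted p = 0.328), but with clone trends removed it was -0.67 (adjusted p = 0.0335). LPIN1 (ENSG00000134324, chromosome 2, 11677595 to 11827409), a phosphatidate phosphatase, ran from 5.08 to 5.65 log2 CPM in BDD clones (median 5.57) and was 5.59, 5.39, 5.31 and 5.52 in FL clones, with 5.75 in HEK 28. Its log2 fold change was 0.02 (SE 0.13; limma adjusted p = 0.906). ACSS2, which makes acetyl-CoA from acetate, had 3.48 ± 0.31 and 3.17 ± 0.38 (adjusted p = 0.300).

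The mean over the 17 sterol arm genes summarised each clone. BDD clones 1, 2, 7, 12, 13 and 27 had means of 4.60, 4.52, 4.40, 4.67, 4.42 and 4.29 log2 CPM. FL clones 4, 7, 9 and 10 had 5.06, 5.97, 5.28 and 5.00, and HEK 28 had 5.10. All BDD clones were below all FL clones, and the group means were 4.48 ± 0.14 (SD, n = 6) and 5.33 ± 0.44 (SD, n = 4). The difference was -0.85, and -0.63 without FL clone 7. BDD clones 1 and 12, whose F8 levels (7.74 and 7.43 log2 CPM) lay within the FL range, were below every FL clone in this mean too. The same held for their INSIG1 levels, 4.01 and 4.31. For the 10 fatty acid genes the means were 5.70 ± 0.08 and 6.07 ± 0.15, a difference of -0.37, and HEK 28 had 6.01. No test was made on these means, since the genes are a chosen list.

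**Figure D4:**
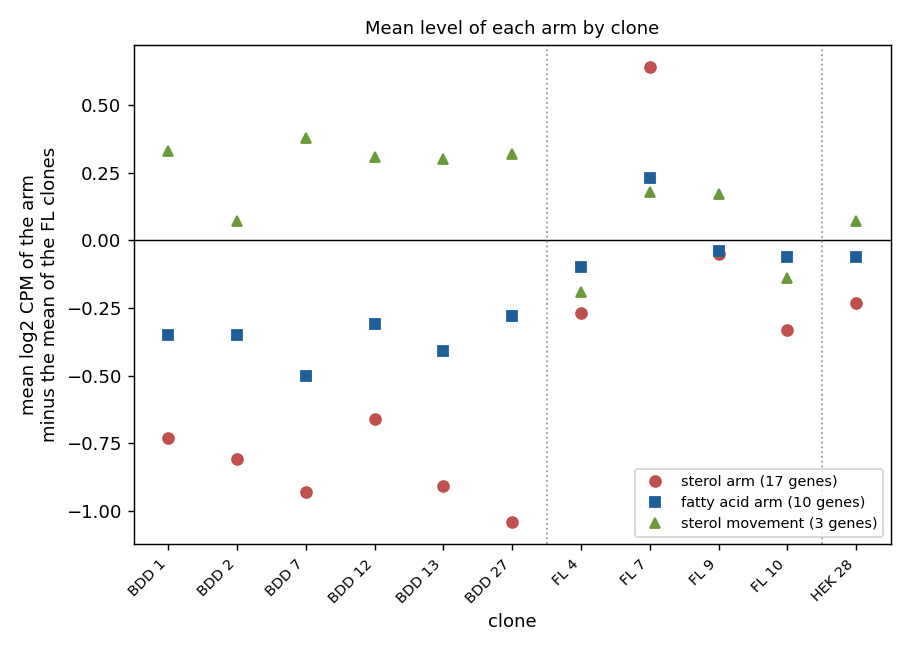
Mean log2 CPM over the 17 sterol arm genes (circles), 10 fatty acid genes (squares) and 3 sterol movement genes (triangles) in each clone, minus the mean of the 4 FL clones. The BDD clones lie below the FL clones for the sterol and fatty acid arms, and FL clone 7 lies above the other FL clones in both.

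FL clones were not alike in the sterol arm. FL clone 7 was the highest FL clone in 17 of 17 sterol arm genes and in 26 of 35 members, against 31.1% of all genes tested. It was at least 1.5-fold above the mean of the other FL clones in 13 of the 17 and in 17 of the 35, against 11.1% of all genes. The ratio was 3.82 for HMGCS1, 2.39 for ACAT2, 2.23 for FASN, 2.13 for ELOVL6 and 1.97 for DHCR7. It was 1.68 for INSIG1 and 1.49 for SCD, and 0.595 for SREBF1. Within the fatty acid arm FL clone 7 was highest in 5 of 10 genes. FL clone 10 was the lowest FL clone in 10 of the 17 sterol genes. The share over all genes was not counted for FL clone 10, so nothing is read from that count. No BDD clone led in the same way: the lowest BDD clone was clone 27 in 6 of the 17, clone 7 in 4 and clone 13 in 3. Without FL clone 7, 15 of the 18 calls were made; HMGCS1, MVD and EBP were lost. All 15 were also made with each other clone left out in turn.

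HEK 28 is a single line, and its tests assume that it varies like the clones of the other groups. It lay within the range of the FL clones for 23 of 35 members, against 58% of all genes, below it for 7 and above it for 5. In the sterol arm it was above every BDD clone for 12 of 17 genes, against 24.6% of all genes. Against FL clones, 0 members were called (limma), as were 0% of all genes, and 1 member, IDI1, had an unadjusted p below 0.05 (-1.07, p = 0.01, against 5.11% of all genes). Against HEK 28, BDD clones were lower for INSIG1 (-1.41, adjusted p = 0.021), SCD (-0.96, adjusted p = 0.0403) and ACLY (-0.68, adjusted p = 0.0361), 3 of 35 where 2.3% of all genes were lower. No member was higher, against 2.49% of all genes. The median over members was -0.56 there and -0.45 against FL clones; both comparisons share the BDD clones.

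Levels can be compared between genes only per length of transcript. As log2 CPM per kilobase of merged exons of all GENCODE 29 transcripts, the FL means were highest for SCD (6.03), ACAT2 (5.49), FDPS (5.38), ACLY (5.34) and HMGCS1 (5.32). The lowest were HSD17B7 (-1.47), STARD4 (-0.77) and FADS2 (-0.42). The order depends on the transcripts counted. With the basic GENCODE 29 set FDPS has 1647 exonic bases in place of 3718, and its FL mean becomes 6.56 log2 CPM per kilobase, above SCD at 6.03, ACAT2 at 5.93 and HMGCS1 at 5.74. SCD was above ACAT2 in each FL clone with all transcripts, but below it in FL clone 7 with the basic set (6.44 and 6.75).

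Other genes of the pathway, from lists chosen with earlier results of these data known, were counted in the same fit. There 16.5% of all genes tested were lower and 16.1% higher. Among genes with a mean of at least 3 log2 CPM, 22.7% were lower. Shares near these are not a result about a list. Of 12 genes listed for SREBP processing or protein degradation, 3 were lower and 0 higher in BDD clones. Their median log2 fold change was -0.22. UBXN8, which tethers a degradation complex to the endoplasmic reticulum, had 2.98 ± 0.47 and 4.32 ± 0.11 log2 CPM (-1.34, limma adjusted p = 0.000629). Whether UBXN8 acts on partners of SREBP was not examined. ERLIN2, a membrane protein of the complex that degrades sterol-regulated proteins, had 3.48 ± 0.17 and 4.19 ± 0.23 (-0.71, adjusted p = 0.00456). Of 9 LXR pathway genes, which respond to oxysterols or encode the receptors, 0 were lower and 4 higher, with a median of 0.29. RXRA, the partner receptor, was among them (0.60, adjusted p = 0.00452). Of 17 genes of sterol esterification and transfer, 1 was lower, VPS4A (-0.50, adjusted p = 0.0194, lost in 2 of 10 fits with 1 clone left out), and 1 higher, GRAMD1B (0.55, adjusted p = 0.0145). In the isoprenoid branch 4 of 11 were lower and 0 higher, with a median of -0.37; PDSS1, which makes the side chain of ubiquinone, changed by -0.81 on the log2 scale (adjusted p = 0.00161), and ICMT, a methyltransferase of prenylated proteins, by -0.63 (adjusted p = 0.00462).

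Beyond the members, 23 of 26 listed genes of fatty acid synthesis and elongation were tested, and 7 were lower and 3 higher, with a median of -0.22. MECR, a reductase of mitochondrial fatty acid synthesis, had 4.77 ± 0.28 and 5.96 ± 0.19 log2 CPM (-1.19, adjusted p = 9.2e-05), and ACSL4, which activates polyunsaturated fatty acids, changed by -0.68 (adjusted p = 0.00626). HACD1, an elongation dehydratase, was higher (0.64, adjusted p = 0.0099), and so was MLXIPL, a carbohydrate-responsive factor (0.54, adjusted p = 0.0426), which kept its call in 3 of 10 fits with 1 clone left out, where the adjusted p reached 0.148. Of 19 glycerolipid genes, 7 were lower and 0 higher (median -0.35), with CHPT1 at -0.69 (adjusted p = 0.000398) and PTDSS1, a phosphatidylserine synthase, at -0.67 (adjusted p = 0.00412). In beta oxidation, the breakdown route that SREBP is not known to drive, 12 of 22 were lower and 1 higher, with a median of -0.51. CPT2 (-0.99, adjusted p = 0.000149) and ECI2 (-0.82, adjusted p = 0.000323) were lower, and ACADVL was higher (0.80, adjusted p = 0.000822). The background for each of these counts is again 16.5% lower and 16.1% higher over all genes tested. For genes with a mean of at least 3 log2 CPM, 22.7% were lower. No difference between lists was tested.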

How the data were processed

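RNA of 22 libraries from 11 HEK293 clones was sequenced. Per the submitters' processing notes, the tools were TopHat2, Bowtie, cutadapt and FastQC and the build hg38; versions and roles are not stated there. Not given in the sources used here are the counter, the gene annotation, strandedness, any filter and the scaling. For 15797 genes the deposited table gives log2 CPM, as its values show. The lowest value in every library was -1.45, equal to 0.367 CPM, and values under 1000 reads were multiples of the library's smallest step for 100% of genes (tolerance 0.01), which gave 4951081 to 6197084 reads per library and a prior of about 2 reads. This prior is part of every fold change, which understates changes of low genes. All per-sample columns of the table were used.

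Each clone's 2 libraries were averaged. A filter of 1 CPM in at least 4 of 10 BDD and FL clones kept 15611 genes. The deposited log2 values were then fitted with limma (version 3.58.1, lmFit and eBayes with a trend; R version 4.3.3). Benjamini-Hochberg adjustment ran over all genes tested, with a threshold of 0.05; called means past it. HEK 28 was left out of this fit and entered a separate one of all 11 clones. Tables were made with Python 3.11.15, numpy 2.4.6 and pandas 2.3.3. Positions and exon lengths came from GENCODE 29 and promoters from RefSeq. An overlap of the groups refers to clone means.

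The members and all lists were chosen with earlier results of these data known. The rule for named genes gave values by clone for members picked by role, means for every other called member, and from each other list at most the 2 called genes of smallest p in each direction; 1 of these is not reported here. Alternatives covered scaling, filter, pseudocounts of 1 and 0.1 CPM, the unit of replication, each clone left out, HEK 28 as an FL clone, BDD clones 7 and 13 or 2 left out, limma-voom, per-clone trends removed by regression splines, and a threshold of 0.01.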

Additional observations from a re-analysis of the deposited data

Results flagged for a closer look

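In each group of BDD and FL clones the highest and the lowest value of every member were set against their neighbours by Dixon's test. Of 70 groups tested, 3 were flagged. Chance flags about 1 in 20 groups, so this count is no more than chance would give. In all 3 the flagged clone was FL clone 7, highest for MSMO1 and TM7SF2 and lowest for ACLY. MSMO1 in FL clone 7 was 6.29 log2 CPM, where the next FL clone had 5.40 (gap over range 0.91). TM7SF2 in FL clone 7 was 4.54, where the next FL clone had 3.69 (0.887). ACLY in FL clone 7 was 7.60, below the next lowest FL clone at 7.75 (0.867). The MSMO1 and ACLY calls were also made without FL clone 7, with log2 fold changes of -1.18 (limma adjusted p = 0.000175) and -0.44 (adjusted p = 0.00979), and TM7SF2 was not called with or without it (-0.17, adjusted p = 0.680).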

How the results depend on the processing

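Of the 18 lower calls, 15 held with every clone left out in turn, 13 with clone trends removed and 17 without BDD clones 7 and 13. Over 24 distinct alternatives, 417 of 432 values of called members stayed past the threshold and none changed sign; 18 of 408 values of members that were not called passed it. The count of members called lower was 15 to 19 with 1 clone left out, that of the sterol arm 10 to 13 and of the fatty acid arm 4 to 5. No member of the sterol arm was called higher in these fits.

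The members' median of -0.45 ranged from -0.51 to -0.38 and the sterol arm's of -1.0 from -1.12 to -0.76 with 1 clone left out, in each case nearest 0 without FL clone 7. The fatty acid median of -0.34 ranged from -0.41 to -0.31, was -0.26 without BDD clones 7 and 13 and -0.25 with trends removed. Members called higher, 0 in the main comparison, were 1 with median-of-ratios scaling, library totals, the clone as a random block or HEK 28 as an FL clone, and 0 to 1 with 1 clone left out. With libraries as samples, 2 members were called higher and 1 of the fatty acid arm. No scaling moved the median of all genes beyond 0.05.

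Libraries as samples with the letter as a replicate block gave 19 members lower, 2 higher, 1 fatty acid gene higher, 6399 genes between BDD and FL, 51 between HEK 28 and FL and 2280 between BDD and HEK 28. The letters are not stated to pair libraries across clones. The 5080 genes called between BDD and FL became 2715 at a threshold of 0.01 and 3699 to 5325 with 1 clone left out. Between HEK 28 and FL the count of 0 became 58 with libraries as samples, 3 with the clone as a random block and 2 with limma-voom, and stayed 0 with 1 clone left out. Between BDD and HEK 28 the 748 genes became 2387 with libraries as samples, 1318 with the random block, 315 without BDD clones 7 and 13, 85 at a threshold of 0.01 and 452 to 951 with 1 clone left out, least without BDD clone 7. The cause of these changes was not tested. The median over members of the difference between libraries a and b was 0.12 (FL clone 9) to 0.58 (BDD clone 2) log2 units.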
